A study of Mus musculus with 14 samples.

Results

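Interferon-stimulated genes are the genes that cells switch on when interferon binds its receptors. A set of 43 of them, chosen by name, was followed through RNA-seq libraries of mouse spleen B cells in a study of the loss of TET2, a dioxygenase that acts on the methyl group of cytosine in DNA. The 43 are among the 41053 genes in each of 2 deposited count tables, and every one of them is present in both. They comprise 36 genes chiefly of the type I interferon response and 7 GTPases that interferon-gamma induces. The 14 libraries fall into 4 groups, all from the spleen of mice of the C57BL/6 strain. Germinal center (GC) B cells, which divide and mutate their antibody genes during an immune response, gave 4 Tet2 knock-out libraries (KO, numbered 2, 3, 4 and 5 as replicates) and 3 libraries of wild-type cells (WT, numbered 1, 3 and 4). Lymphoma B cells gave 2 libraries labelled shTet2, for a short hairpin RNA against Tet2 (replicates 1 and 2), and 5 control libraries labelled wild-type for TET2 (replicates 1 to 5). The sources used here do not give the animals' age, the purification of the cells, the stretch of Tet2 that was removed, the cells in which it was removed, or the origin of the lymphoma.

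Type I interferons signal through a receptor whose kinases JAK1 and TYK2 activate a complex that includes STAT2 and IRF9 and that binds the interferon-stimulated response element (ISRE) in target promoters. Interferon-gamma uses another receptor, acts through the gamma-activated site (GAS) and also induces IRF1. Targets of both pathways include sensors of foreign nucleic acid, further transcription factors, proteins that block viral replication, and, chiefly downstream of interferon-gamma, guanylate-binding proteins and immunity-related GTPases that attack vacuoles holding microbes.

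Both elements can be looked for in the DNA. RefSeq promoter windows on GRCm38.p6, running from 250 bases before to 50 bases after each start, were at hand for 32 of the 43 genes. The ISRE core was searched on both strands as GAAA, any 2 bases, then GAAA, and the GAS core as TTCNNNGAA, which is its own reverse complement. The ISRE core was found in 17 of the 32 genes (53.1%), against 3.99% of 27025 genes with a window. It was found in all 6 GTPases that had a window (Gbp2, Gbp3, Gbp5, Gbp7, Igtp and Irgm1) and in 11 of 26 type I response genes (42.3%). The GAS core was found in 10 of 32 (31.2%), against 9.55% of all genes, and 6 genes held both. These are matches of letters and not measured binding. The stretches printed here lie before the start of 4 genes that passed the test between KO and WT GC B cells; each runs 5′ to 3′ along the gene's strand for 80 bases, with the ISRE matches in capitals.
Oas1a, chr5:120907526-120907605, minus strand: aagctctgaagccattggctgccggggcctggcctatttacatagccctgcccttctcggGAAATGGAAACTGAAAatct
Gbp3, chr3:142559964-142560043, plus strand: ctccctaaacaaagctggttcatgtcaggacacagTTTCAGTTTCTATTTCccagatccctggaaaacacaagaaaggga
Gbp5, chr3:142496734-142496813, plus strand: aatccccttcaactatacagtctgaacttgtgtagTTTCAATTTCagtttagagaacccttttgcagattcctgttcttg
Igtp, chr11:58199476-58199555, plus strand: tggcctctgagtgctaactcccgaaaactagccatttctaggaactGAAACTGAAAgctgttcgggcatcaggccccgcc
Oas1a and Gbp3 each carried 2 overlapping ISRE matches, and Gbp5 and Igtp carried 1 each. In Gbp3 and Gbp5 the match lay on the strand opposite to the gene. The windows of Pml and Oasl2, which passed tests below, held neither core. No match says only that these letters are not in this window.

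Total counts ran from 27191862 to 30434184 in GC B-cell libraries and from 6691167 to 18598386 in lymphoma libraries. A hand-picked list of 189 ribosomal and other structural RNA genes took 0.350% to 1.22% of the counts in GC B cells, 54.0% to 74.2% in control lymphoma and 42.6% to 51.2% in shTet2 lymphoma. The 43 genes together collected 44877 to 56348 counts per GC B-cell library and 8490 to 29799 per lymphoma library. Tet2 passed the test in neither Tet2 comparison (edgeR log2 fold changes 0.04 ± 0.13 and -0.21 ± 0.10, adjusted p = 0.909 and 0.295). It was at 13.5 ± 1.26 CPM (read counts scaled for library size; SD, n = 4) in KO and 13.2 ± 1.22 (n = 3) in WT, and at 54.9 and 50.7 in the libraries labelled shTet2 against 57.5 to 68.0 in control. Since the deleted part of the gene is not known here, whole-gene counts do not check the KO label. The 8 B-cell markers summed to between 3988 and 6011 CPM in every library, and the 8 GC markers to 1255 to 1527 in GC B cells, 289 and 353 in shTet2 lymphoma and 178 to 229 in control lymphoma. The 4 Y-linked genes counted summed to 114 to 125 CPM in KO, 61.2 to 74.8 in WT and 0 in lymphoma libraries. Y-linked levels thus differed between KO and WT, without overlap, and between the cell types. The part of sex in these comparisons was not tested. Whether replicates are separate animals or cultures is not stated in the labels, so a p-value here measures only how these libraries spread, which may be technical.

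Levels between genes can be compared only per length, as FPKM (CPM divided by exon length in kilobases, computed here with the 14 libraries scaled together). Ifi27l2a, which encodes a small interferon-induced protein, had the highest level of the 43 in every group. Its FPKM was 159 ± 34 in WT, 180.3 ± 32 in KO (SD, n = 3 and 4), 88.8 ± 13 in control lymphoma (n = 5), and 52.2 and 97.3 in the shTet2 libraries. In WT GC B cells it was followed by Bst2 at 21.3 ± 2.7, which tethers budding virions to the cell, and by Irf1 at 20.8 ± 3.9, a transcription factor. Those 2 levels and that of Ifi35, at 20.2 ± 1.9, did not differ beyond their spread. The lowest tested levels in WT were those of Iigp1 at 0.194 ± 0.094, Ifi44 at 0.234 ± 0.11 and Rsad2 at 0.255 ± 0.17. In control lymphoma Pml stood next to Ifi27l2a, at 70.5 ± 7.7, followed by Samd9l at 56.6 ± 6.0 and Irf1 at 51.1 ± 9.7.

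Trex1, which degrades cytosolic DNA, is listed with 0 counts in all 14 libraries and could not be tested. All of its 1314 exon bases are shared with Atrip on the same strand, and reads that fall on more than 1 gene are left out by the counter's default settings. Atrip itself had 7844 counts. The other 42 genes passed the filter on low counts in all 4 comparisons. Of the 43, 13 share exon bases with another gene, 10 of them with a gene on the other strand, such as Parp9 and Dtx3l with each other (458 bases) and Ifi35 with Gm11626 (290 bases). Without a strand setting in the counting, reads of such pairs cannot be told apart. Oas1a, Oasl1, Oasl2, the Ifit genes and the guanylate-binding proteins belong to gene families, and how alike the relatives are was not measured. Their counts are uncertain to the extent that reads map to several copies.

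The libraries labelled KO were compared with the wild type to see how the response genes stand without the enzyme. Among 42 tested genes, 1 rose and 5 fell in KO (edgeR's quasi-likelihood test, adjusted p under 0.05 by Benjamini-Hochberg over all genes tested). Of all 13600 genes tested, 6.49% were called, 1.92% higher and 4.57% lower. Of 35 type I genes, Oas1a rose and Pml fell, and their median log2 fold change was -0.03. Of 7 GTPases, Gbp3, Gbp5, Igtp and Irgm1 fell, all 7 had a fold change below 0, and the median was -0.59. The median over all genes tested was 0.01.

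**Figure D1:**
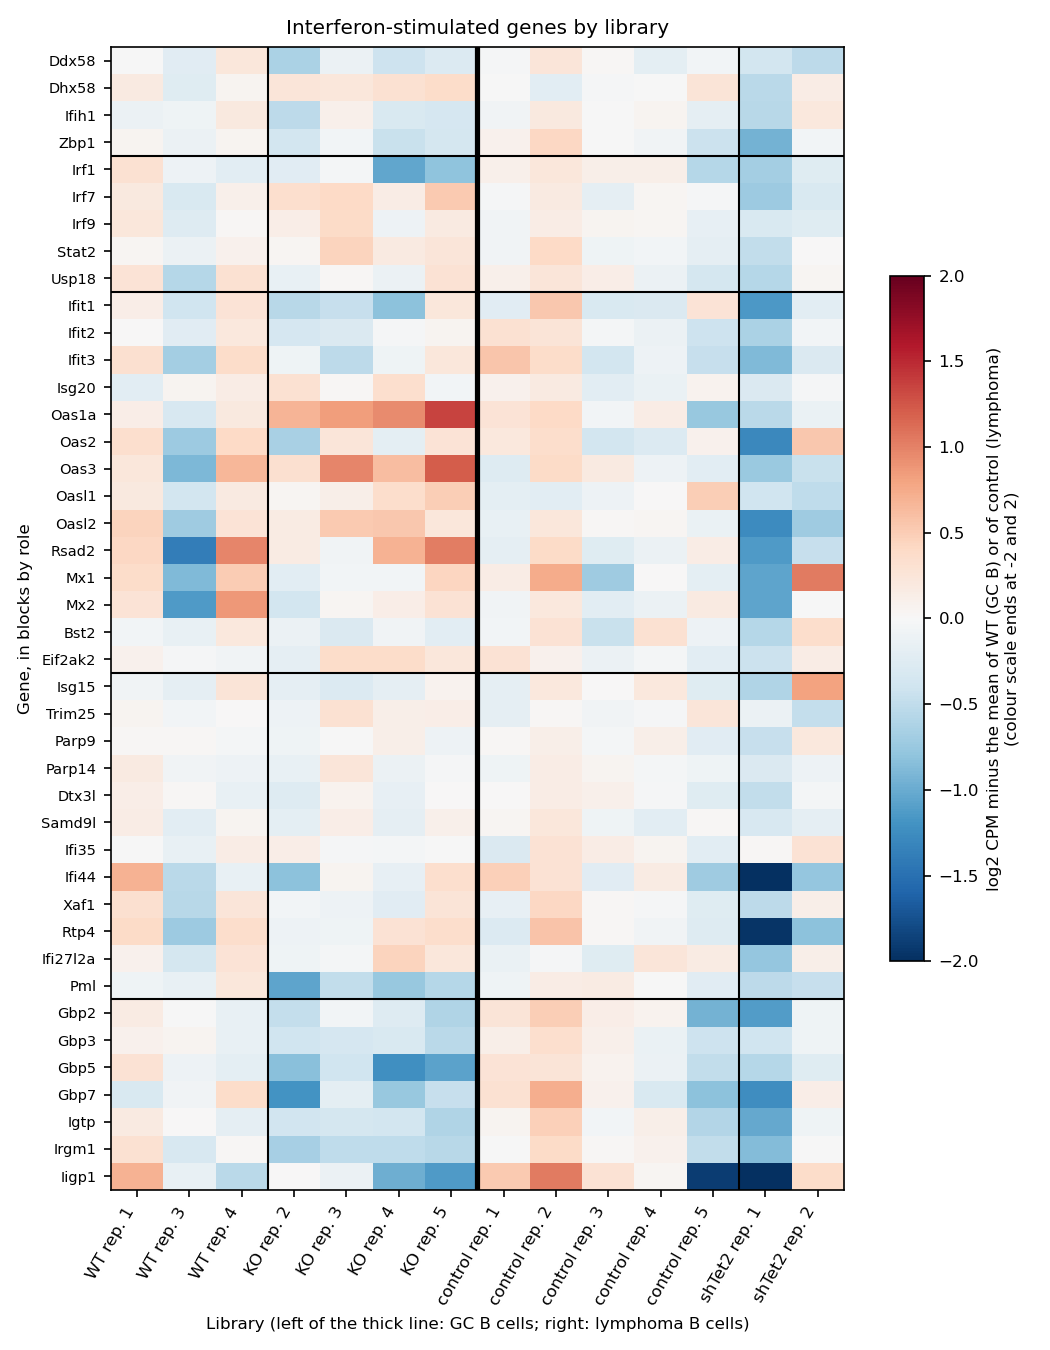
Each cell is a gene's log2 CPM in a library minus the mean of the WT libraries (GC B cells, left of the thick line) or of the control libraries (lymphoma, right); genes are in blocks by role, and the colour scale ends at -2 and 2. The bottom block, the 7 GTPases, is mostly blue in the 4 KO libraries and darkest in shTet2 replicate 1, while Oas1a is red in all 4 KO libraries and Pml blue.

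Among the 4 sensors, which detect viral RNA or unusual nucleic acid, none passed the test between KO and WT. Unadjusted p was under 0.05 for 3 of them, and DESeq2 and limma-voom also called 0. Ddx58, which encodes RIG-I, was at 30.0, 42.7, 35.1 and 38.7 CPM in KO replicates 2 to 5 and at 46.2, 39.9 and 54.8 in WT replicates 1, 3 and 4. The groups overlapped, since KO replicate 3 lay above WT replicate 3 (log2 fold change -0.36 ± 0.13 SE, adjusted p = 0.117). Zbp1, a sensor of Z-form nucleic acid, was at 33.3 to 43.4 CPM in KO and 41.8 to 47.2 in WT (-0.30 ± 0.10, adjusted p = 0.106). Dhx58, a relative of RIG-I, had the opposite sign: it was at 51.2 to 56.6 CPM in KO, above the WT range of 37.2 to 49.9 (0.27 ± 0.10, adjusted p = 0.135). Ifih1, which encodes MDA5, was low at 3.20 to 5.34 CPM in the 7 libraries.

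The transcription factors and feedback regulators also had 0 calls among 5, with 2 at an unadjusted p under 0.05 and 0 by DESeq2 or limma-voom. Stat2, a subunit of the ISRE-binding complex, was at 124, 164, 136 and 142 CPM in KO and 124, 111 and 127 in WT (0.23 ± 0.10, adjusted p = 0.196). Irf9, the DNA-binding subunit of that complex, was at 73.0 to 102 CPM in KO and 65.6 to 92.0 in WT, ranges that overlapped widely. Irf7, which amplifies interferon production, was at 69.7, 72.3, 61.0 and 79.4 CPM in KO and 63.3, 44.8 and 58.9 in WT (0.34 ± 0.12, adjusted p = 0.110). Only KO replicate 4 lay within the WT range. Irf1, the factor that interferon-gamma induces, had the widest spread: 110.2, 126, 62.8 and 74.1 CPM in KO against 159, 121 and 112 in WT (-0.49 ± 0.28, adjusted p = 0.417). Usp18, which removes ISG15 and damps receptor signalling, was at 8.80 to 11.9 in KO and 6.54 to 11.98 in WT.

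Of the antiviral effectors, 14 were tested and Oas1a alone was called. Oas1a encodes an enzyme that senses double-stranded RNA and makes the messenger that activates RNase L; it lies on the minus strand of chromosome 5, from 120896256 to 120907521 on GRCm38. It was at 9.14, 10.2, 10.98 and 14.5 CPM in KO replicates 2 to 5 and at 6.25, 4.51 and 6.49 in WT replicates 1, 3 and 4. The groups did not overlap, and the fold change was 1.95-fold higher in KO (log2 0.96 ± 0.19, adjusted p = 0.00491). It passed under each of 16 alternatives (0.81 to 1.06, adjusted p 1.85e-06 to 0.0284). Its relative Oas3 was at 6.70, 10.7, 8.33 and 12.6 CPM in KO and 6.32, 2.85 and 8.61 in WT, with overlap (0.70 ± 0.36, adjusted p = 0.347). Oas2, on the same chromosome, had a fold change near 0 (-0.12 ± 0.29). Eif2ak2, which encodes the kinase PKR, was at 29.6 to 43.1 CPM in KO and 31.9 to 35.6 in WT. Isg20, an exonuclease, and Bst2 were at 30.5 to 39.8 and 20.9 to 24.4 CPM in KO, and at 27.4 to 35.3 and 23.0 to 29.6 in WT. For the genes of the Ifit and Mx families, Rsad2, Oasl1 and Oasl2, fold changes ran from -0.38 for Ifit1 to 0.29 for Oasl2, all with adjusted p above 0.4.

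Among the 12 ubiquitin-like, ADP-ribosylation and other type I genes, Pml fell and 11 were not called. PML builds the nuclear bodies named after it; the gene lies on the minus strand of chromosome 9, from 58218076 to 58249786. It was at 58.4, 86.4, 72.2 and 82.1 CPM in KO and at 114, 110.0 and 143 in WT. Every KO library lay below every WT library, a 1.64-fold lower level in KO (log2 -0.71 ± 0.13, adjusted p = 0.00453), and the call held under each of 16 alternatives (-0.79 to -0.59). The abundant members showed little difference: Samd9l, which restrains translation, was at 132 to 165 CPM in KO and 130.1 to 167 in WT, and Trim25, a ubiquitin ligase that acts on RIG-I, at 109.6 to 146 and 113 to 122. Parp14 and Parp9, of the ADP-ribosyltransferase family, and Dtx3l, the ubiquitin ligase that partners PARP9, had fold changes of -0.01, -0.02 and -0.09. Isg15, the ubiquitin-like protein itself, was at 6.63 to 8.43 CPM in KO and 7.07 to 9.61 in WT.

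The 4 GTPases that fell were Gbp5, Irgm1, Gbp3 and Igtp, on chromosomes 3 and 11. Gbp5, a guanylate-binding protein that promotes inflammasome assembly, was at 10.004, 13.6, 7.67 and 8.53 CPM in KO and at 22.0, 16.8 and 15.7 in WT. The groups were apart, 1.83-fold lower in KO (log2 -0.87 ± 0.18, adjusted p = 0.0102). As counted, Gbp5 spans chromosome 3 from 142496934 to 142619179, across Gbp7 and Gbp3, with no exon bases shared with them. Which of its exons held the reads was not looked at. Irgm1, a regulator of the other immunity-related GTPases, was at 20.3, 22.7, 22.6 and 21.9 CPM in KO and at 40.0, 25.7 and 32.6 in WT. The KO libraries were close together and all below WT replicate 3, the lowest WT library (1.501-fold lower, log2 -0.59 ± 0.13, adjusted p = 0.0119). Gbp3 was at 32.6, 34.0, 34.9 and 29.6 CPM in KO and at 45.9, 44.8 and 38.9 in WT, again apart (1.32-fold lower, log2 -0.40 ± 0.10, adjusted p = 0.0218). Igtp, which encodes IRGM3, was at 21.5, 22.2, 21.9 and 18.5 CPM in KO and at 31.8, 28.2 and 25.0 in WT, apart (1.35-fold lower, log2 -0.43 ± 0.11, adjusted p = 0.0327); 162 of its exon bases are shared with Irgm2.

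The other 3 GTPases had the same sign and did not pass. Gbp7 was at 2.001, 4.04, 2.72 and 3.35 CPM in KO and 3.77, 4.45 and 6.01 in WT (-0.64 ± 0.24, adjusted p = 0.142). Iigp1, an immunity-related GTPase that loads onto parasite vacuoles, was near the limit of detection at 0.368 to 0.900 CPM in KO and 0.594 to 1.48 in WT (-0.61 ± 0.43, adjusted p = 0.473). Gbp2 was at 9.03 to 13.2 CPM in KO and 12.4 to 15.3 in WT (-0.34 ± 0.15, adjusted p = 0.212). In all 3 the groups overlapped.

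**Figure D2:**
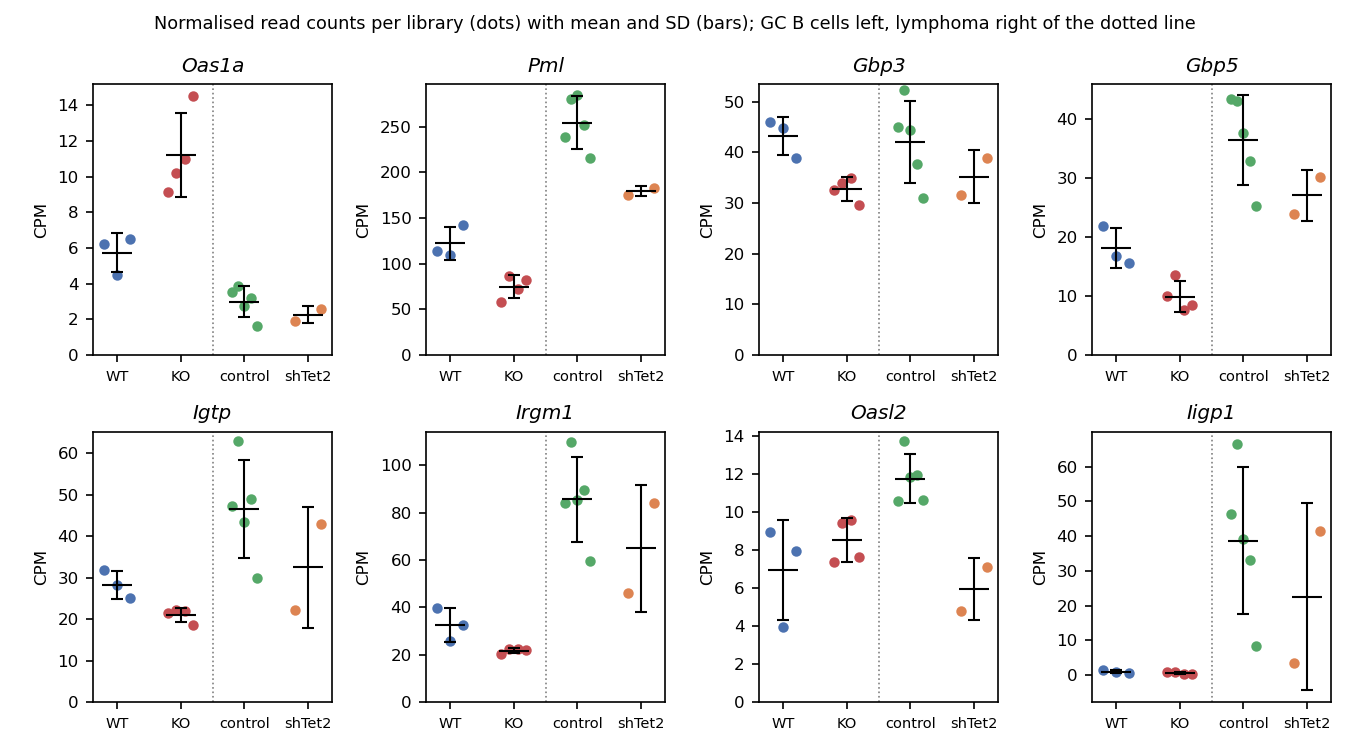
CPM per library (dots) with mean and SD (bars) for the genes called in a Tet2 comparison and for Iigp1; CPM were scaled within each table, so values left and right of the dotted line are not on 1 scale. KO dots lie below all WT dots for Pml, Gbp3, Gbp5, Igtp and Irgm1 and above them for Oas1a, and the 2 shTet2 dots of Igtp, Irgm1 and Iigp1 lie far apart.

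The GTPase calls rested on few libraries. Without WT replicate 1, the library with the highest Gbp3, Gbp5, Igtp and Irgm1, none of the 7 passed in edgeR; 5 had an unadjusted p under 0.05, all 7 stayed below 0, and the median was -0.35. The 4 log2 fold changes were then -0.71 for Gbp5, -0.42 for Irgm1, -0.35 for Gbp3 and -0.34 for Igtp, with adjusted p = 0.0682, 0.0845, 0.102 and 0.156. Without KO replicate 5 or without WT replicate 3, Gbp5 and Irgm1 passed and Gbp3 (-0.35 and -0.37, adjusted p = 0.0794 and 0.0961) and Igtp (-0.37 and -0.43, adjusted p = 0.110 and 0.0911) did not. Igtp also missed without KO replicate 4 (-0.45, adjusted p = 0.0521). A model of all 4 groups with a shared spread kept Gbp5 and Pml among the genes that fell, and gave adjusted p = 0.193 for Irgm1, 0.137 for Gbp3 and 0.394 for Igtp.

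Markers of macrophages and other myeloid cells were lower in the same libraries. The 12 myeloid markers summed to between 50.3 and 52.5 CPM in KO and between 87.2 and 99.6 in WT, and 10 of 11 tested markers fell in KO (median log2 fold change -1.30); none was at 0 counts in either group. Their part in the lower GTPase counts was not tested. In spleen samples, fewer cells of a type and less RNA per cell cannot be told apart. T-cell markers summed to 78.4 to 94.8 CPM in KO and 106 to 134 in WT, nearly all of it from Lck, and the T-cell receptor gene Cd3e had 12 and 10 counts over the KO and WT libraries. Of 5 tested T-cell markers 1 fell and 1 rose: Thy1 was at 1.37 to 1.61 CPM in KO and 0.142 to 0.420 in WT.

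The interferon genes looked at, which include Ifna1, Ifna2 and Ifna4 and no other Ifna gene, were barely seen. The counting set no option for reads that map to several copies, so 0 counts need not mean absence. Ifnb1, Ifna1, Ifna2, Ifna4, Ifnl2 and Ifnl3 had 0 counts in all 14 libraries, and Ifng had 8, 10, 7 and 7 counts over the KO, WT, shTet2 and control groups. These are raw counts from unlike depths. Counts outside structural RNA were 26858812 to 30262989 per GC B-cell library and 2033674 to 7192190 per lymphoma library. Similar Ifng counts are thus a larger share of the reads in lymphoma, though all are too few for a firm comparison. Of 39 interferon, receptor and signalling genes, 32 were tested in GC B cells; 3 fell and none rose (edgeR; 0 rose at an unadjusted p under 0.05 or by DESeq2 or limma-voom). They were Tlr3, the endosomal receptor for double-stranded RNA (log2 -2.16 ± 0.22, adjusted p = 3.9e-05), Ifnlr1, a chain of the interferon-lambda receptor (-1.22 ± 0.26, adjusted p = 0.0144), and Irf2, an antagonist of IRF1 (-0.32 ± 0.08, adjusted p = 0.0307). DESeq2 called 8 lower. A further list of 44 interferon-induced genes outside the 43 had 41 tested, of which 5 fell and 1 rose. Cxcl10, a chemokine that interferon-gamma induces, was at 0.689 to 1.23 CPM in KO and 5.22 to 5.42 in WT (log2 -2.52 ± 0.23, adjusted p = 1.34e-05). Ifi47, another immunity-related GTPase, was at 32.1 to 39.8 CPM in KO and 53.3 to 68.6 in WT (-0.80 ± 0.11, adjusted p = 0.000292), and Gbp8 fell by 1.21 on the log2 scale (adjusted p = 0.00175). Ifitm3, which blocks viral entry, rose (1.22 ± 0.30, adjusted p = 0.0224).

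The lymphoma libraries labelled shTet2, in which Tet2 itself did not pass the test, were compared with the control libraries in the second table. Of the 42 tested genes none rose and 2 fell, Oasl2 and Pml, where 2.58% of 12797 genes were called, 1.84% higher and 0.742% lower. For higher calls, 0 had an unadjusted p under 0.05, and DESeq2 and limma-voom also gave 0. Fold changes of 39 of the 42 lay below 0, with a median of -0.28 over 35 type I genes and -0.47 over 7 GTPases, against -0.00 over all genes tested. The lean was strongest in shTet2 replicate 1, in which 34 of 35 type I genes and 7 of 7 GTPases were below the control mean (median differences -0.57 and -1.02). In shTet2 replicate 2 the medians were -0.06 and -0.08, with 22 of 35 and 5 of 7 below the control mean.

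Oasl2, an OAS-like protein that binds double-stranded RNA, was at 4.80 and 7.10 CPM in the shTet2 libraries and at 10.6, 13.7, 11.8, 11.96 and 10.6 in control replicates 1 to 5. Both shTet2 libraries lay below all controls, and the level was 1.97-fold lower (log2 -0.98 ± 0.19, adjusted p = 0.0193); the gene lies on the plus strand of chromosome 5, from 114896936 to 114912234. Pml was at 176 and 183 CPM in the shTet2 libraries and at 239, 281, 285, 252 and 216 in control. The groups did not overlap and both shTet2 values were alike (1.42-fold lower, log2 -0.50 ± 0.12, adjusted p = 0.0405). Both calls were near the threshold. Without control replicate 2 or 3 neither gene passed: Oasl2 was at -0.93 and -0.97 (adjusted p = 0.0529 and 0.0626) and Pml at -0.46 and -0.45 (adjusted p = 0.117 and 0.112). Pml also missed without shTet2 replicate 2 (-0.53, adjusted p = 0.100), control replicate 1 (-0.52, adjusted p = 0.0868) or control replicate 4 (-0.50, adjusted p = 0.0835), and in the model of all 4 groups (-0.48, adjusted p = 0.0509). It passed in 10 of 17 alternatives.

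Several other type I genes were lower in the shTet2 libraries and did not pass. Rtp4, a chaperone for receptor transport, was at 1.41 and 3.28 CPM against 4.91, 8.91, 6.04, 5.64 and 4.98 in control, with no overlap (log2 -1.36 ± 0.34, adjusted p = 0.0568); it was called by DESeq2 (adjusted p = 0.00635) and limma-voom (adjusted p = 0.0401), and without shTet2 replicate 2 (-2.06, adjusted p = 0.00853). Ddx58 was at 57.7 and 51.7 CPM against 65.3 to 87.9 in control, also apart (-0.45 ± 0.12, adjusted p = 0.0691); it passed by DESeq2 and without shTet2 replicate 1 (-0.53, adjusted p = 0.0134). Irf7 was at 10.7 and 14.4 CPM against 15.7 to 20.2 (-0.50 ± 0.15, adjusted p = 0.102). Ifi44 was at 0.365 and 1.07 CPM against 1.12 to 2.77 (-1.48 ± 0.48, adjusted p = 0.122), counts too low for a firm comparison. Zbp1 was at 19.8 and 36.9 CPM against 28.6 to 51.5 in control. Mx1 was at 1.77 and 8.04 CPM against 2.29 to 6.502, so that the 2 shTet2 libraries lay on either side of all the controls. Without shTet2 replicate 1, Mx1 was called higher and Ddx58, Oasl2, Pml and Trim25 lower, and 2481 genes were called in all; shTet2 replicate 2 then stands alone and is assumed to vary like the controls.

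The GTPases split the 2 shTet2 libraries. None was called in edgeR (0 of 7 had an unadjusted p under 0.05, and DESeq2 and limma-voom called 0). Iigp1 was at 3.55 and 41.6 CPM in shTet2 replicates 1 and 2 and at 46.2, 66.5, 39.2, 33.1 and 8.49 in control replicates 1 to 5. The lowest shTet2 and the lowest control library were both far under the rest (log2 -0.76 ± 1.10, adjusted p = 0.754). Gbp7 was at 20.02 and 52.3 CPM against 58.5, 79.0, 50.4, 38.5 and 26.9. Irgm1 was at 46.0 and 83.9 against 84.0, 109.6, 85.4, 89.5 and 59.5, and Igtp at 22.2 and 42.8 against 47.2, 62.8, 43.5, 49.0 and 29.9. In each of these genes shTet2 replicate 1 was the lowest of the 7 libraries and control replicate 5 the lowest control. Without shTet2 replicate 1 the GTPase median was -0.10, with Gbp7 at 0.08 and Iigp1 at 0.15, and without shTet2 replicate 2 it was -1.04. Without shTet2 replicate 1 and control replicate 5 together, an alternative chosen after the values were seen, it was -0.20.

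**Figure D3:**
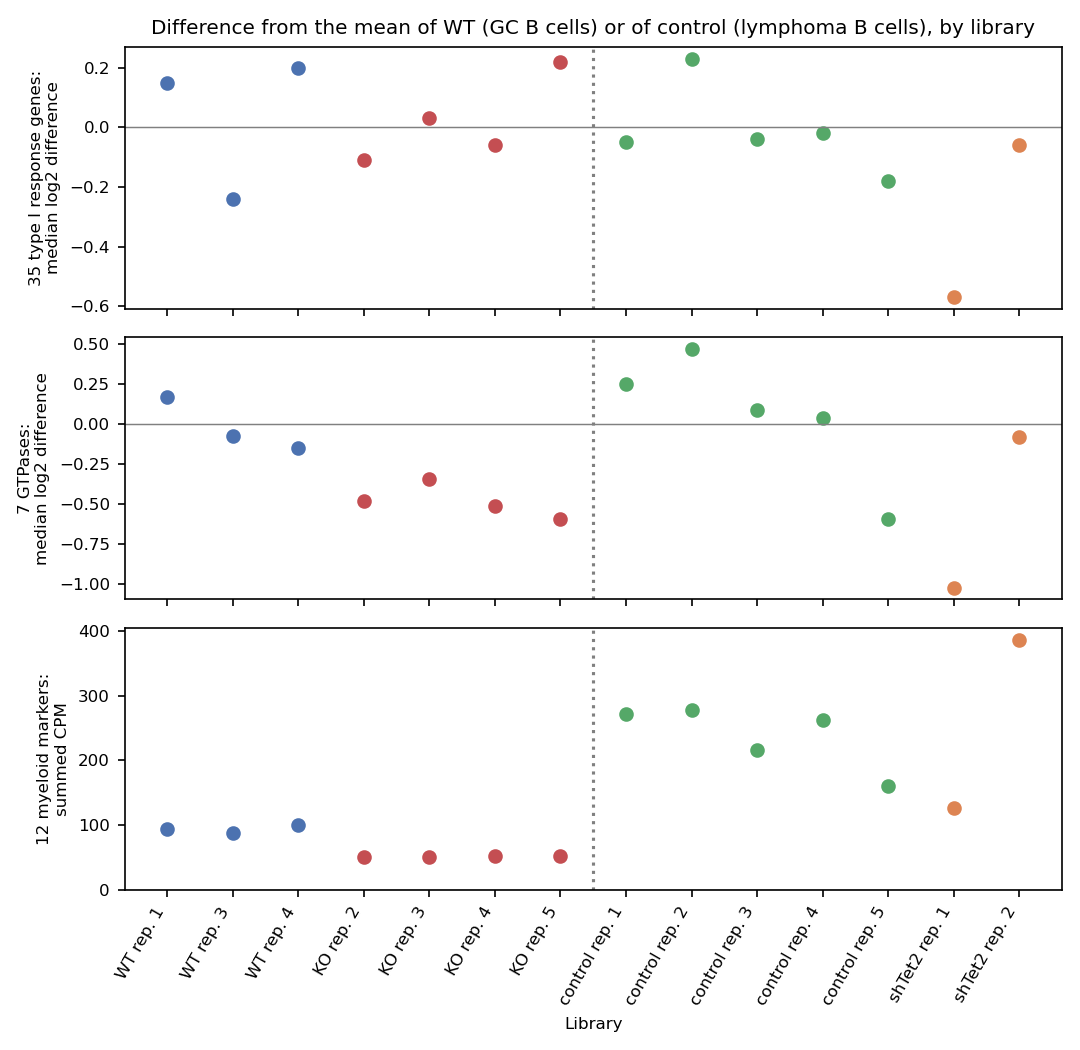
The upper panels plot, for each library, the median over the 35 type I genes and the 7 GTPases of log2 CPM minus the mean of WT or of control, and the lowest panel the summed CPM of the 12 myeloid markers. The GTPase medians of the 4 KO libraries lie between -0.34 and -0.59 and their marker sums are the lowest. Among lymphoma libraries, shTet2 replicate 1 and control replicate 5 are lowest in both of the lower panels, in the lowest panel mostly through Mpeg1.

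The myeloid marker sum was lowest in the same libraries, 127 CPM in shTet2 replicate 1 and 161 in control replicate 5. It was 216 to 278 in the other 4 controls. In shTet2 replicate 2, where the GTPase median was -0.08 from the control mean, it was 386. Much of the sum came from Mpeg1, at 62.2 CPM in shTet2 replicate 1, 96.9 in control replicate 5 and 150 to 206 in the other controls. Most of the gap from shTet2 replicate 1 and control replicate 5 to the other controls was in Mpeg1. Emr1 went the other way, at 14.1 CPM in shTet2 replicate 1 and 4.02 to 11.9 in control. Csf1r, C1qb, Itgam, Cd14, Vcam1, Cd68 and Ly6c2 in shTet2 replicate 1 lay within the control range, and Lyz2, C1qa and C1qc lay below it. Of 11 tested myeloid markers edgeR called 0 (median log2 fold change 0.20), and no marker was at 0 counts in either group. The part of this sum in the GTPase values was not tested. Markers of GC B cells were higher in the shTet2 libraries: 2 of 7 tested rose and none fell, with a median log2 fold change of 1.90. Markers of plasmacytoid dendritic cells, which produce type I interferon, summed to 214 and 352 CPM in shTet2 replicates 1 and 2 and to 229 to 240 in control, most of it from Tcf4, and T-cell markers to 36.1 and 67.1 against 23.2 to 51.6. The part of these markers in the lower values of Oasl2, Pml and the other type I genes was not tested. Of the signalling list 0 of 32 tested genes were called by edgeR or limma-voom and 1 by DESeq2, with 4 at an unadjusted p under 0.05. Of the further interferon-induced list, 2 of 40 fell: Sp100, a component of PML nuclear bodies (-0.52 ± 0.11, adjusted p = 0.0282), and Epsti1 (-0.60 ± 0.14, adjusted p = 0.0381).

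The KO effect in GC B cells was tested against the shTet2 effect in lymphoma cells in a model of all 4 groups. For 3 of the 42 genes the KO effect was higher, and for none lower, where 4.99% of 15441 genes were called, 1.61% higher and 3.39% lower. None was lower at an unadjusted p under 0.05 in edgeR, or by DESeq2 or limma-voom. The 3 were Oas1a (log2 difference 1.35 ± 0.37, adjusted p = 0.0377), Oasl2 (1.30 ± 0.33, adjusted p = 0.0248) and Irf7 (0.87 ± 0.20, adjusted p = 0.0124). Each had a positive fold change in KO and a negative fold change in shTet2: 0.96 and -0.36 for Oas1a, 0.29 and -0.98 for Oasl2, 0.34 and -0.50 for Irf7. Irf7 and Oasl2 passed in 21 of 22 alternatives. Oas1a passed in 9 of 22 and missed when any of 11 of the 14 libraries was left out, with differences of 1.14 to 1.61 and adjusted p of 0.0502 to 0.0937 in those. Oasl2 missed without shTet2 replicate 1 (1.04, adjusted p = 0.0647). In the same test 4 of 7 GC markers (median -1.91), 5 of 12 myeloid markers (median -1.29) and 1 of 7 T-cell markers were lower and none of them higher; their part in the 3 calls was not tested.

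Pml, which fell in both comparisons, did not pass this test (-0.18 ± 0.19, adjusted p = 0.649). Its 2 fold changes, -0.71 and -0.50, come from separate libraries with no shared control. The 7 GTPases had differences of -0.42 to 0.27, none called by edgeR, DESeq2 or limma-voom and 0 at an unadjusted p under 0.05; their median was -0.12, -0.53 without shTet2 replicate 1 and 0.68 without shTet2 replicate 2. For the type I genes the median difference was 0.30, with 29 of 35 above 0. Over all 15441 genes tested the median was 0.01, with 7914 above 0. The type I median was 0.09 without shTet2 replicate 1 and 0.70 without shTet2 replicate 2.

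**Figure D4:**
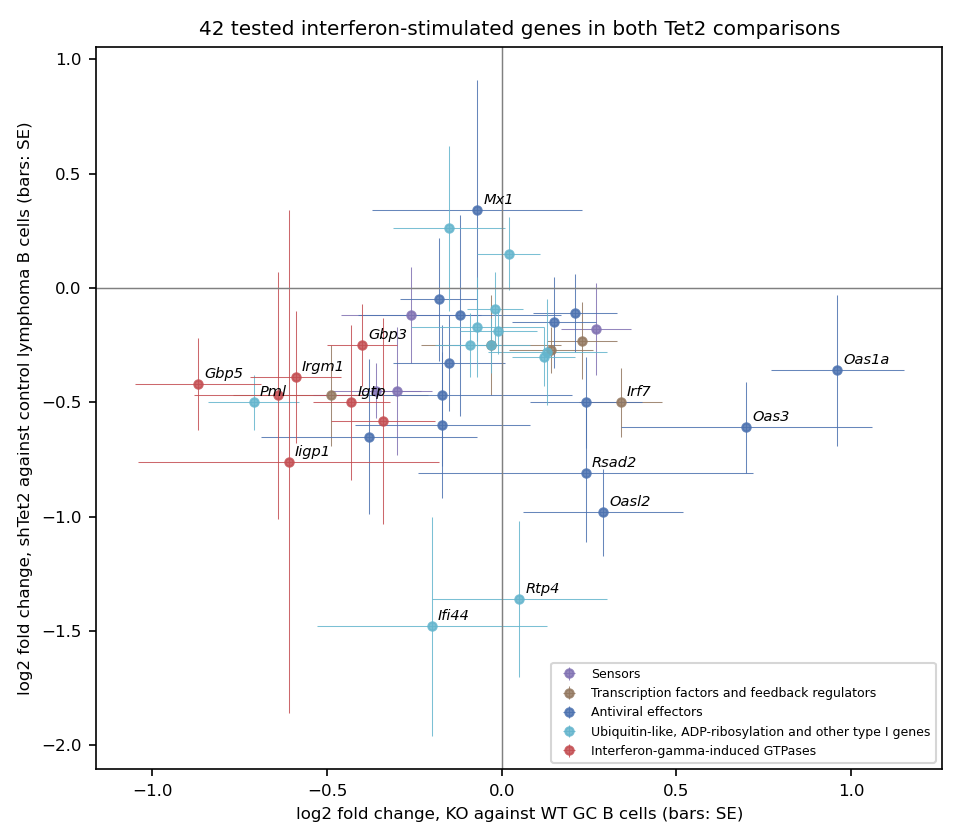
Each point is a gene, with its log2 fold change in KO against WT on the x axis and in shTet2 against control on the y axis, bars giving the SE and colours the role. Of 42 points 39 lie below 0 on the y axis; the 7 GTPases also lie below 0 on the x axis, Oas1a lies at 0.96 and -0.36, and Pml at -0.71 and -0.50.

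Wider differences lay between the cell types. Control lymphoma had higher counts than WT GC B cells for 31 of 42 genes and lower counts for 6, in a comparison in which 80.7% of 15441 genes were called, 40.2% higher and 40.4% lower. All 7 GTPases were higher, with a median log2 fold change of 2.67, and 24 of 35 type I genes were higher and 6 lower, with a median of 1.05. Over all genes tested the median was -0.03 under the scaling used, 0.11 under median-of-ratios scaling and 0.38 under upper-quartile scaling, where 60.9% of called genes were higher in place of 49.9%, and 34 of the 42 were higher and 3 lower. Cell type, count table, depth, the share of structural RNA and Y-linked counts, which were 0 in all lymphoma libraries, cannot be told apart here. This comparison shares its WT and control libraries with the Tet2 comparisons.

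Iigp1 differed most. Its FPKM was 0.299, 0.162 and 0.119 in WT replicates 1, 3 and 4 and 22.9, 32.3, 19.5, 16.4 and 4.24 in control replicates 1 to 5 (93.9-fold higher, log2 6.55 ± 0.99, edgeR adjusted p = 9.88e-05). Even the lowest control library was above every WT library. Gbp7 was at 0.539 ± 0.13 FPKM in WT (SD, n = 3) and 14.1 ± 5.4 in control (n = 5), 25.6-fold higher (log2 4.68 ± 0.46, adjusted p = 2.34e-06). Next came Gbp2 at 6.79-fold, Irgm1 at 6.34-fold, Pml at 5.09-fold, Ifit1 at 4.9998-fold, Gbp5 at 4.87-fold and Rsad2 at 4.59-fold, all higher in control lymphoma. Ifit1 binds foreign RNA caps, and Rsad2 encodes viperin, which makes a chain-terminating nucleotide; both were low in WT, at 0.399 ± 0.094 and 0.255 ± 0.17 FPKM.

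The 6 genes lower in control lymphoma were Isg20, 2.60-fold lower (log2 -1.38 ± 0.14), Ifi27l2a, 1.79-fold lower (-0.84 ± 0.20), Dhx58, 1.75-fold lower (-0.81 ± 0.13), Ifi35, 1.74-fold lower (-0.80 ± 0.11), Bst2, 1.49-fold lower (-0.58 ± 0.18), and Irf7, 1.29-fold lower (-0.37 ± 0.12). Isg20, Dhx58 and Ifi35 passed under each of 22 alternatives. Under upper-quartile scaling Irf7 changed sign (0.04), and Bst2 and Ifi27l2a did not pass (-0.17 and -0.44). Irf7 passed in 16 of 22 alternatives and also missed under median-of-ratios scaling (-0.23, adjusted p = 0.0891), by DESeq2 (-0.23, adjusted p = 0.115) and with a filter at 1 CPM (-0.27, adjusted p = 0.0543). It missed without WT replicate 1 or 4 (-0.24 and -0.30, adjusted p = 0.107 and 0.0569), and Bst2 without WT replicate 4 (-0.44, adjusted p = 0.0517). Stat2, Oas1a, Mx1, Isg15 and Xaf1 were not called, with log2 fold changes of 0.11, 0.30, -0.04, -0.43 and 0.33.

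**Figure D5:**
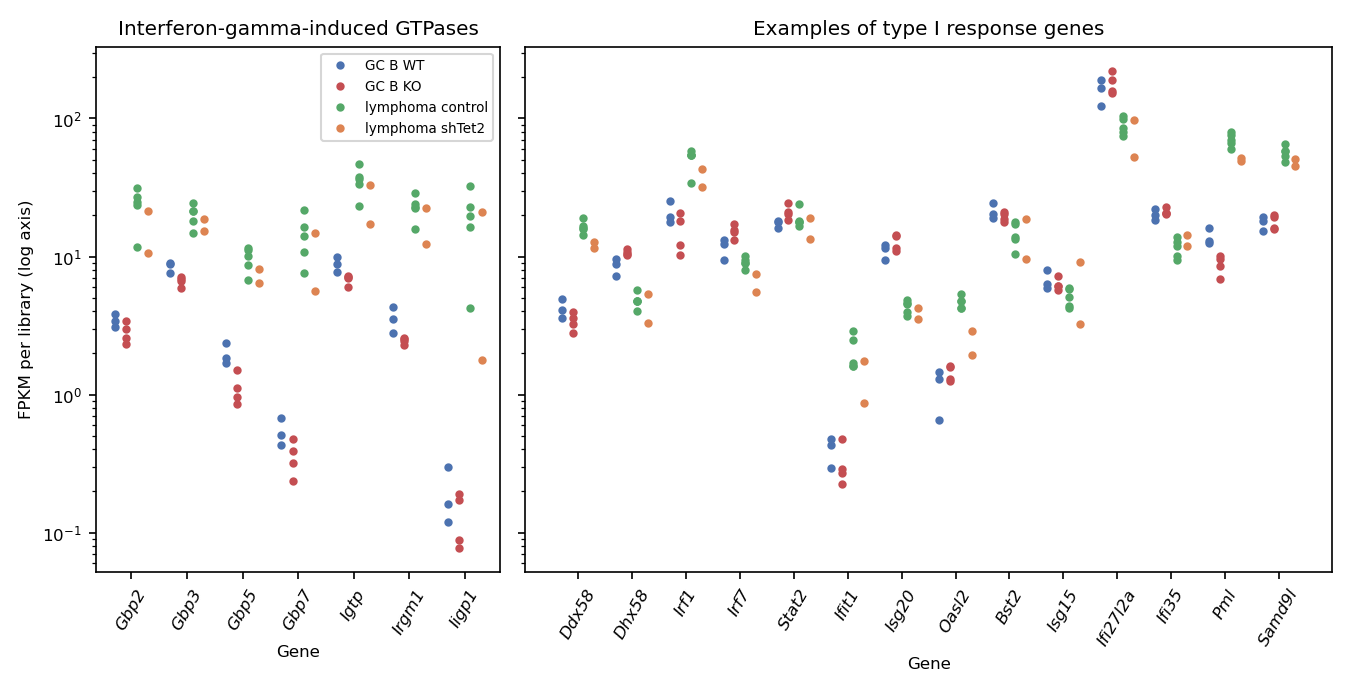
FPKM per library on a log axis for the 7 GTPases (left) and 14 type I genes (right), scaled over all 14 libraries. Control and shTet2 dots lie above WT and KO dots for the GTPases, by most in Iigp1 and Gbp7, and below them for Isg20, Dhx58 and Ifi35, with Ifi27l2a the highest gene in all groups.

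In the signalling list 16 of 32 tested genes were higher and 10 lower in control lymphoma. That is 81.25% called, near the 80.7% called over all genes. Irf4, a B-cell transcription factor, was higher by 1.75 ± 0.09 on the log2 scale and Tlr7, a sensor of single-stranded RNA, by 2.87 ± 0.19, while Irf3, which starts interferon production, was lower (-1.60 ± 0.09, adjusted p = 1.25e-12). Among 41 tested genes of the further list 23 were higher and 6 lower, 70.7% called and so under the share of all genes. Tgtp2, another GTPase that interferon-gamma induces, was at 4.74 ± 0.40. The myeloid markers summed to 161 to 278 CPM in control lymphoma and 87.2 to 99.6 in WT, and 4 of 12 tested were higher and none lower (edgeR; DESeq2 also gave 4 and 0, and 0 were lower at an unadjusted p under 0.05). Markers of natural killer (NK) cells summed to 7.31 to 9.40 CPM in control lymphoma and 1.58 to 2.11 in WT, and 6 of 6 tested were higher (median log2 fold change 2.66). Plasmacytoid dendritic cell markers summed to 229 to 240 and 131 to 169 CPM, with 4 of 5 higher and 1 lower (median 2.33). T-cell markers summed to 23.2 to 51.6 and 106 to 134 CPM, with 6 of 7 higher (median 2.82) and 1 lower. The lower marker was Lck, at 17.0 to 24.8 CPM in control lymphoma and 104 to 132 in WT, nearly all of the WT sum. All 7 tested GC markers were lower (median -5.73). The part of these marker lists in the differences was not tested.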

How the data were processed

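RNA-seq of total RNA from 14 libraries was used. The authors deposited 2 tables of unnormalised read counts by gene. Per the file headers, featureCounts 1.5.1 counted reads on GENCODE vM3 exons, and its command set no option for strand, read pairs, overlapping genes or multi-mapping reads. Reads had been aligned with STAR 2.3.0e and the build was GRCm38.p3, per the submitters' processing notes. Exon lengths and coordinates come from the same tables.

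From the counts, KO and WT, and shTet2 and control, were each compared in edgeR 4.0.16 (R 4.3.3; TMM scaling, filterByExpr, robust quasi-likelihood fits, Benjamini-Hochberg adjustment over all genes tested, threshold 0.05). The difference of effects and control against WT came from 1 model of all 4 groups. SE is the size of the log2 fold change over the square root of F. CPM are TMM-scaled within each table, except in marker sums and FPKM, which use all 14 libraries. Log CPM used a prior count of 2. The alternatives tried were scaling by median of ratios or upper quartile, the tools DESeq2 1.42.0 and limma-voom (limma 3.58.1), no filter, a filter at 1 CPM, removal of structural RNA genes, other sets of groups, a replicate block, and leaving out each library. The tests were checked on simulated data. Of genes given a 2-fold change, 72.7% passed in KO against WT and 60.6% in shTet2 against control. For the difference of effects 43.9% passed, and for control against WT 58%, so a gene not called may still differ. Genes given no change made up 5.11%, 10.2%, 4.35% and 2.13% of those passing, in the same order. The share for shTet2 against control was thus well above the threshold of 0.05. No pair of replicates agreed within sampling noise. Groups came from the titles.

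Named were all genes called in a Tet2 comparison, up to 8 per direction for control against WT, per role up to 3 with the highest CPM and the largest fold change, and up to 4 per comparison from other lists; some others were added after their values were seen. The genes and lists were chosen with earlier results of these data known. The annotation in the files is GENCODE vM3; RefSeq windows served for motifs only.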

Additional observations from a re-analysis of the deposited data

Results flagged for a closer look

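Checks of a gene in a group of 4 or 5 libraries numbered 84. In 3 of them a library was set apart by a gap that was large for the range. Chance gives about 1 in 20, so 3 of 84 is no more than chance gives. Irf1 was at 86.8 CPM in control replicate 5 and 139 to 152 in the other 4 controls, a gap of 0.849 of the whole range. Stat2 was at 70.1 CPM in control replicate 2 and 47.0 to 51.1 in the other controls, a gap of 0.789 of the range. Igtp was at 18.5 CPM in KO replicate 5 and 21.5 to 22.2 in the other 3 KO libraries, a gap of 0.834 of the range.

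The difference between the libraries labelled KO and WT was not the same as that between the libraries labelled shTet2 and control for 3 genes in edgeR's test of the difference itself: Oas1a by 1.35, Oasl2 by 1.30 and Irf7 by 0.87 on the log2 scale, with KO against WT the higher in each.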

How the results depend on the processing

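In KO against WT, the count of interferon-stimulated genes that fell (5) was 1 to 6 when a library was left out and 2 in the model of all 4 groups; without a filter 2 rose and 1365 genes in all were called, against 883. In shTet2 against control, the count that fell (2) was 0 to 4 without a library, 5 without shTet2 replicate 1 and control replicate 5, 4 by DESeq2 and 5 without a filter, and the count that rose was 0 to 1. All genes called there (330) came to 100 to 2481 without a library, 2600 without those 2 libraries, 599 by DESeq2, 782 without a filter and 840 in the model of all 4 groups. For the difference of effects, 3 genes became 2 to 5 without a library and 5 by DESeq2, and all genes called (771) became 283 to 2001 and 1166. In control against WT, the count that was lower (6) was 3 under upper-quartile scaling, where Irf7 turned to 0.04. With a library left out, the lymphoma fold change of Gbp7 ran from -1.30 to 0.08 and that of Iigp1 from -3.39 to 0.15, turning above 0 without shTet2 replicate 1. Where samples were left out, fewer entered the fit; otherwise the cause was not tested. With the replicate number as a block, KO against WT gave Oas1a as higher, 1 gene lower (Pml) and 570 genes in all, shTet2 against control gave 0 lower and 4 genes in all, and the difference gave 1 (Oasl2) and 256. Only 2 numbers are shared in each comparison, and libraries of the same number did not deviate together (correlations 0.03 and -0.02 in GC B cells, -0.10 and -0.00 in lymphoma), so the numbers were not taken to pair the libraries. Of the fold changes of named genes under these alternatives, 746 kept direction and side of the threshold, 49 lost the call, 11 gained it and 3 reversed. Depth limits the genes under about 1 CPM, Iigp1 in GC B cells and Ifi44 in shTet2, and 2 shTet2 libraries limit every lymphoma call.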

Other observations

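Tbx21, the gene of the transcription factor T-bet, which interferon-gamma signalling induces, is in none of the lists and was looked at after its values were seen. It was at 8.02 to 12.4 CPM in KO (n = 4) and 64.4 to 80.6 in WT (n = 3) (log2 -2.85 ± 0.14, edgeR adjusted p = 1.73e-08), with no overlap. In lymphoma it was at 9.18 and 19.1 CPM in shTet2 and 6.42 to 11.4 in control (0.77 ± 0.28, adjusted p = 0.182), and the 2 effects differed (-3.58 ± 0.33, adjusted p = 5.94e-05).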
